A study of Mus musculus with 617 samples.

Results

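The Dppa genes (developmental pluripotency associated) examined here were Dppa2, Dppa3, Dppa4 and Dppa5a, 4 of the 43628 Ensembl genes whose RNA was measured in 617 single mouse cells. They were taken by symbol through their Ensembl IDs, without regard to their levels, and all 4 were present in each of the 4 deposited tables. Values are FPKM, fragments per kilobase of transcript scaled to the fragments of the cell, a unit that allows levels of different genes to be compared per length.

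The cells formed 13 groups. A female and a male embryonic stem (ES) cell line of the same cross (father CAST/EiJ, mother C57BL/6J) each supplied 4 states: growth as ES cells in 2i medium with LIF (60 female and 51 male cells), growth in serum with LIF (68 and 52), cells grown with Activin A and FGF2 and labelled Epi (79 and 63), and cells labelled motor neuron (39 and 35), made from embryoid bodies with retinoic acid and SAG, an agonist of Smoothened. A second female culture labelled Epi had been kept for 7 passages (41 cells). Embryos of the same cross gave 23 E3.5 cells labelled inner cell mass (ICM) and 23 E4.5 cells labelled epiblast, with no sex given, and embryos of C57BL/6J parents gave 20 female and 63 male cells labelled epiblast at E5.5. The labels state that the motor neuron protocol also yields interneurons, and they name no embryo or separate culture within a group. Sex and line cannot be told apart, since each sex is 1 line, and each culture or stage counted as 1 sample.

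All 4 genes are named for their expression in pluripotent cells, but they do not form 1 sequence family. Dppa2 and Dppa4 encode related nuclear proteins with a SAP DNA-binding domain that bind chromatin together, keep certain CpG-rich promoters free of DNA methylation, and are known activators of genes of the two-cell embryo. Dppa3 (also called Stella or PGC7) encodes a maternal and germ cell factor that binds UHRF1, the recruiter of the maintenance methyltransferase DNMT1, and thereby limits DNA methylation. Dppa5a (also called Esg1) encodes a small KH-domain RNA-binding protein, a relative of the oocyte proteins encoded by Ooep and Khdc3.

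In the GENCODE vM21 annotation of GRCm38, Dppa4 (ENSMUSG00000058550, chromosome 16, 48283733 to 48294237, plus strand) lies 9670 bases before Dppa2 (ENSMUSG00000072419, chromosome 16, 48303908 to 48319723, plus strand). The next gene examined on that side, Morc1, begins 111513 bases after Dppa2. Dppa3 (ENSMUSG00000046323, chromosome 6, 122626410 to 122630272, plus strand) lies between Gdf3, 16322 bases away, and Nanog, 77216 bases away. Dppa5a (ENSMUSG00000060461, chromosome 9, 78367052 to 78368177, minus strand) lies 7931 bases from Ooep. No annotated gene overlaps any of the 4. A transcribed processed pseudogene of Dppa3, Dppa3-ps (ENSMUSG00000080241, chromosome X, 37625647 to 37626097), has its own row in the tables, and reads of Dppa3 and Dppa3-ps could have been split between them, so levels of Dppa3 are uncertain to that extent.

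Read depth was unknown, because the files hold FPKM and no counts. Detected genes (1 FPKM or more) had a group median between 8122 (E3.5 ICM) and 10839.5 (E5.5, female). Labels were checked against markers. The female culture labelled Epi held the primed marker Fgf5 at a mean of 14.1 FPKM and T at 2.199, against 144.9 and 154 in the male Epi culture, and the naive marker Zfp42 at 72.5 against 0.0687. The 7-passage female culture, at 120 for Fgf5, 147.4 for T and 0.117 for Zfp42, had markers near those of the male Epi culture. The summed level of 5 trophectoderm markers (Cdx2, Eomes, Gata3, Krt8 and Elf5) ran from 3.46 to 1079 FPKM over the E4.5 cells labelled epiblast, with a median of 345. The motor neuron cultures held Tubb3 at 501.4 (female) and 1621 (male) FPKM and Isl1 at 129 and 190, and also the endoderm gene Sox17 at 89.5 and 346.

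Dppa5a was the most abundant of the 4 genes in all 13 groups but the 7-passage Epi culture, where its mean was 0.166 FPKM against 0.282 for Dppa2. It was at 1 FPKM or more in 548 of the 617 cells, against 427 for Dppa4, 400 for Dppa2 and 394 for Dppa3. The levels of all 4 genes were high in blastocyst and ES cells and near 0 in the male and the 7-passage female Epi cultures. At E5.5 the means of Dppa2, Dppa3 and Dppa5a were below those at E4.5, while that of Dppa4 depended on sex and scaling. The plot of single cells shows these levels for each group.

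**Figure D1:**
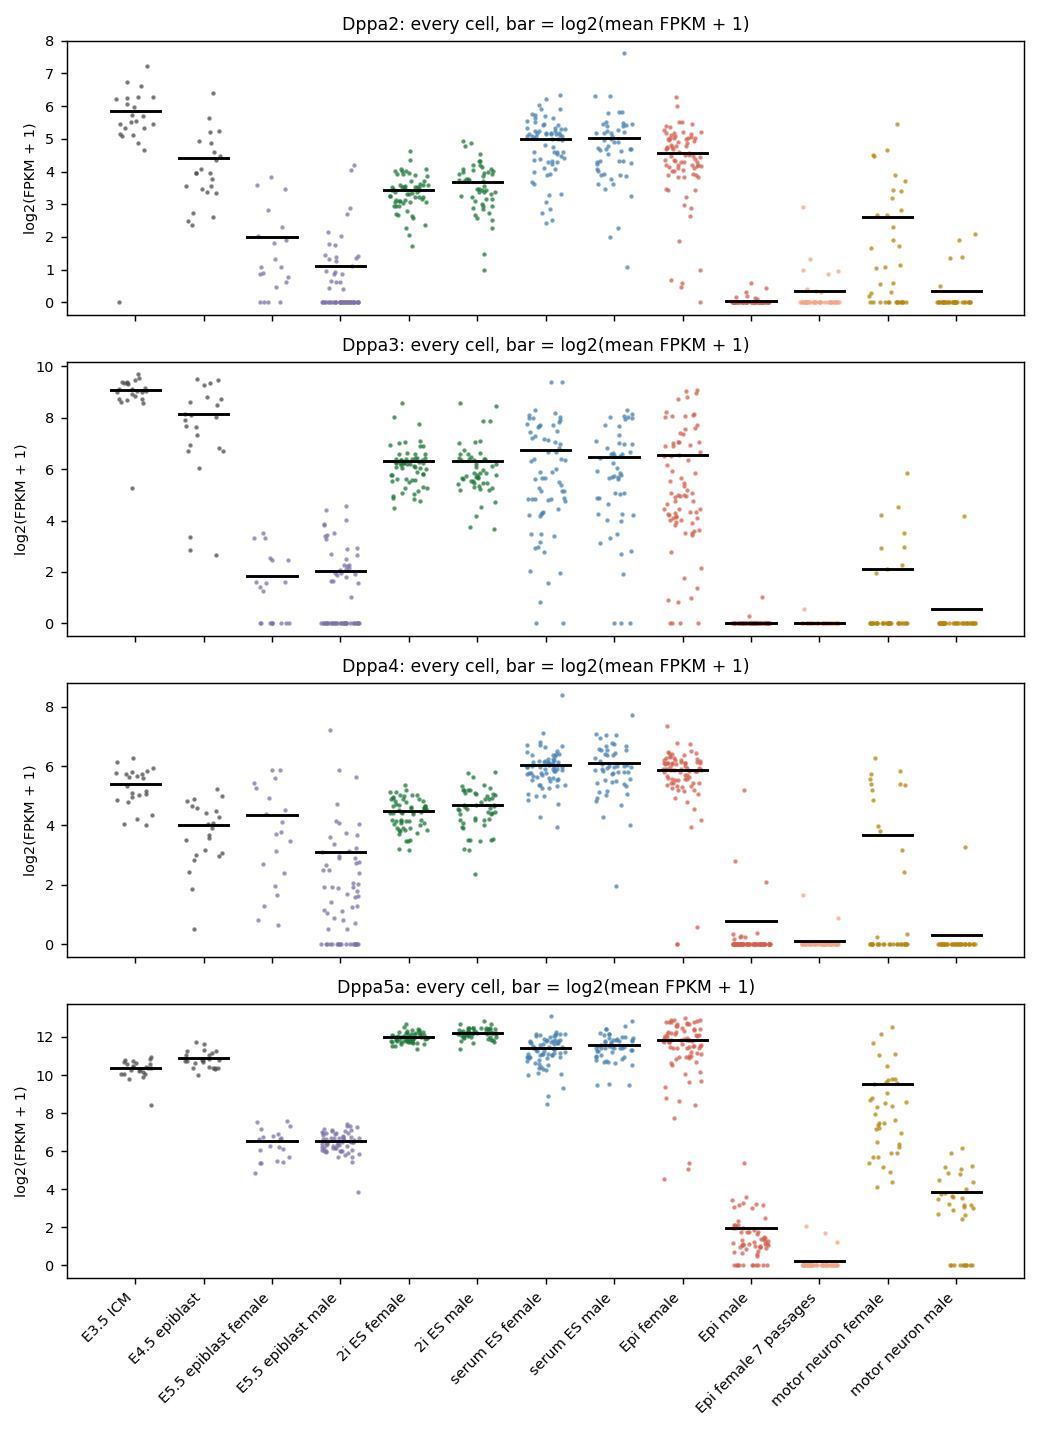
Level of Dppa2, Dppa3, Dppa4 and Dppa5a in every cell, as log2(FPKM + 1) on the vertical axis, by group on the horizontal axis. Each point is a cell and each black bar the log2 of the group's mean FPKM plus 1. The male Epi and 7-passage Epi cultures lie at or near 0 for Dppa2, Dppa3 and Dppa4. With all cells of a culture pooled, cells in 2i lie closer together than cells in serum for Dppa3 and Dppa5a.

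Dppa2, the partner of Dppa4 on chromatin, was highest in E3.5 ICM, at a mean of 56.2 FPKM (SD 31.9 over 23 cells, median 45.8, range 0 to 150). It averaged 20.4 at E4.5 (median 14.4, range 4.14 to 84.1). At E5.5 the mean was 2.99 in female cells (median 1.12, range 0 to 13.3) and 1.16 in male cells (median 0, range 0 to 17.5). The ranges at E4.5 and E5.5 overlapped, although the medians were far apart. In 2i the means were 9.82 FPKM in the female line (median 9.36, range 2.29 to 23.9) and 11.9 in the male line (median 10.8, range 0.981 to 29.6). In serum they were 30.98 (median 32.9, range 4.42 to 79.8) and 31.6 (median 25.2, range 1.11 to 196). Both serum means lay above both 2i means, while the single cells overlapped. The cultures of these 2 states did not overlap, in either direction, for 53.3% of all genes tested.

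The Epi cultures split for Dppa2. The first female culture averaged 22.9 FPKM (median 21.05, range 0 to 76.9), the male culture 0.0243 (highest cell 0.498), and the 7-passage female culture 0.282 (highest cell 6.48). None of the 63 male Epi cells reached 1 FPKM (exact 95% interval up to 5.69%), against 74 of 79 cells of the first female culture (93.7%, 85.8 to 97.9). These and all later intervals are Clopper-Pearson intervals and cover counting error only. Motor neuron cells averaged 5.04 in the female line (median 0.498, highest cell 43.3) and 0.276 in the male line (highest cell 3.28). In order of the mean, E3.5 ICM was followed by male and female serum cells, female Epi, E4.5, male and female 2i, female motor neuron, both E5.5 groups and the 3 lowest cultures. The place of E4.5 holds for deposited FPKM alone, since with rescaled cells it had 35.4, against 33.7 and 35.3 in male and female serum and 27.7 in female Epi. Male and female serum means differed by less than the SD among cells (28.7 and 16.3), as did those of male and female 2i cells (6.18 and 3.96). That SD describes cells and does not measure the spread between cultures.

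Dppa4 followed Dppa2 in most groups. Its mean was 41.01 FPKM in E3.5 ICM (SD 17.1, median 39.6, range 15.3 to 76.3) and 15.3 at E4.5 (median 14.0, range 0.427 to 36.1). The E5.5 cells gave 19.4 in females (median 12.4, range 0.559 to 56.8) and 7.68 in males (median 2.08, range 0 to 148). The female E5.5 mean of Dppa4 lay above its E4.5 mean in deposited FPKM and below it with cells rescaled to an equal sum (18.5 against 25.2). In 2i it averaged 21.2 FPKM in female (median 20.9, range 8.10 to 40.4) and 24.6 in male cells (median 22.9, range 4.19 to 54.6), and in serum 65.2 (median 61.1, range 14.5 to 332) and 67.2 (median 60.4, range 2.93 to 209.9). The first female Epi culture had 56.97 (median 57.9, range 0 to 162). The male Epi culture averaged 0.736 FPKM, with 3 of 63 cells at 1 FPKM or more and 1 of them at 35.8, and the 7-passage culture averaged 0.0736, with 1 of 41 cells. Motor neuron cells gave 11.8 in the female line (median 0, highest cell 76.4), where 13 of 39 cells had it (33.3%, 19.1 to 50.2), and 0.251 in the male line, from 1 cell of 35.

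The ratio of mean Dppa4 to mean Dppa2 was 2.07 to 2.49 in the 5 cultures in which both genes were abundant: both 2i cultures, both serum cultures and the first female Epi culture. It was 0.729 at E3.5 and 0.754 at E4.5, and 6.50 (female) and 6.63 (male) at E5.5. Tables of embryo cells and cultures were deposited separately, and differences between them include any difference in processing. Between 2i and serum the ratio stayed between 2.07 and 2.16, while serum over 2i was 3.15 in the female and 2.65 in the male line for Dppa2, and 3.08 and 2.73 for Dppa4.

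Dppa3 was by far highest in the blastocyst. Its mean was 535 FPKM in E3.5 ICM (SD 162, median 529.9, range 37.2 to 825) and 281.1 at E4.5 (SD 224.6, median 239.7, range 5.32 to 725). At E5.5 it was 2.57 in female cells (median 1.51, highest cell 10.5) and 3.08 in male cells (median 0, highest cell 22.95). The 3 lowest of the 46 blastocyst cells, all from E4.5, thus lay within the range seen at E5.5, and the other 43 lay above it. ES cells in 2i had means of 79.4 (female, median 73.1, range 21.7 to 377) and 79.6 FPKM (male, median 55.98, range 11.8 to 382). Serum gave 106.3 (female, median 49.1, range 0 to 676) and 88.2 (male, median 55.4, range 0 to 310.0).

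The means of Dppa3 in 2i and serum lay close together relative to the spread over cells. The quartiles of female cells were 47.9 and 85.1 FPKM in 2i and 18.8 and 159 in serum, and those of male cells 43.02 and 84.3, and 18.03 and 124.1. The coefficient of variation was 0.713 and 0.917 in 2i (female and male), 1.25 and 0.987 in serum, 1.39 in the first female Epi culture, and 0.303 in E3.5 ICM. All cells in 2i had Dppa3 at 1 FPKM or more, whereas 3 of 68 female and 3 of 52 male cells in serum did not. These spreads are descriptions of 1 culture each and were not tested. In the male line they were not the same within runs of title numbers, a division of the titles that the labels do not explain. Male serum cells had 191 FPKM (coefficient of variation 0.466) in the lower run and 54.01 (0.992) in the higher run. Male 2i cells had 73.9 (0.562) and 83.9 (1.08). The labels do not match runs of 1 culture to those of the other. The coefficient in serum was smaller for lower against lower and higher against higher run. It was larger for the higher serum run against the lower 2i run.

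In the first female Epi culture Dppa3 averaged 93.4 FPKM (median 30.6, range 0 to 544). The male Epi culture had it at 0.0198 (highest cell 1.014) and the 7-passage culture at 0.0111 (highest cell 0.454). Motor neuron cells averaged 3.34 in the female line (highest cell 56.99, 9 of 39 cells at 1 FPKM or more) and 0.482 in the male line, from 1 cell at 16.9. By mean, both blastocyst stages were followed by the serum, first female Epi and 2i cultures, whose means of 79.4 to 106.3 FPKM differed by less than the SD of any of them (56.6 to 132.5). Dppa3-ps ran in parallel, at 117.98 FPKM in E3.5 ICM, 55.6 at E4.5, 34.6 to 37.6 in the 2i, serum and first female Epi cultures, and 0 in all 83 cells at E5.5. Its mean was 19.8% to 46.7% of that of Dppa3 in those blastocyst, ES and Epi groups.

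Dppa5a, the KH-domain gene, was highest in 2i, at 4075 FPKM in the female line (SD 736, median 3960.3, range 2692 to 6494) and 4817 in the male line (SD 886, median 4813, range 2628 to 7437). Serum gave 2746 (SD 1326, median 2591, range 352 to 8681) and 3063 (SD 1328, median 2834, range 720.4 to 7240). Both serum means lay below both 2i means and the coefficient of variation was larger in serum (0.483 and 0.433) than in 2i (0.181 and 0.184). The blastocyst cells had 1324 at E3.5 (SD 360, range 349 to 2002) and 1882 at E4.5 (SD 605, range 1033 to 3355). At E5.5 the means were 92.1 FPKM (female, range 28.4 to 192) and 92.8 (male, range 13.4 to 170.4). No E5.5 cell reached the level of the lowest blastocyst cell.

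The first female Epi culture averaged 3671 FPKM of Dppa5a, above both serum cultures, with the largest SD of the 13 groups (SD 2162, median 3573, range 22.2 to 8227). The male Epi culture had 2.94 (median 1.34, highest cell 40.5) and 42 of 63 cells at 1 FPKM or more (66.7%, 53.7 to 78.1). The 7-passage culture had 0.166 and 3 of 41 cells (7.32%, 1.54 to 19.9). Motor neuron cells of the female line all had Dppa5a at 1 FPKM or more, with a mean of 749.6, a median of 250.5 and a range of 16.3 to 5941. Those of the male line averaged 13.6 (highest cell 72.1), with 25 of 35 cells (71.4%, 53.7 to 85.4). Dppa5a was the only one of the 4 found in every cell at E5.5 and in every female motor neuron cell.

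**Figure D2:**
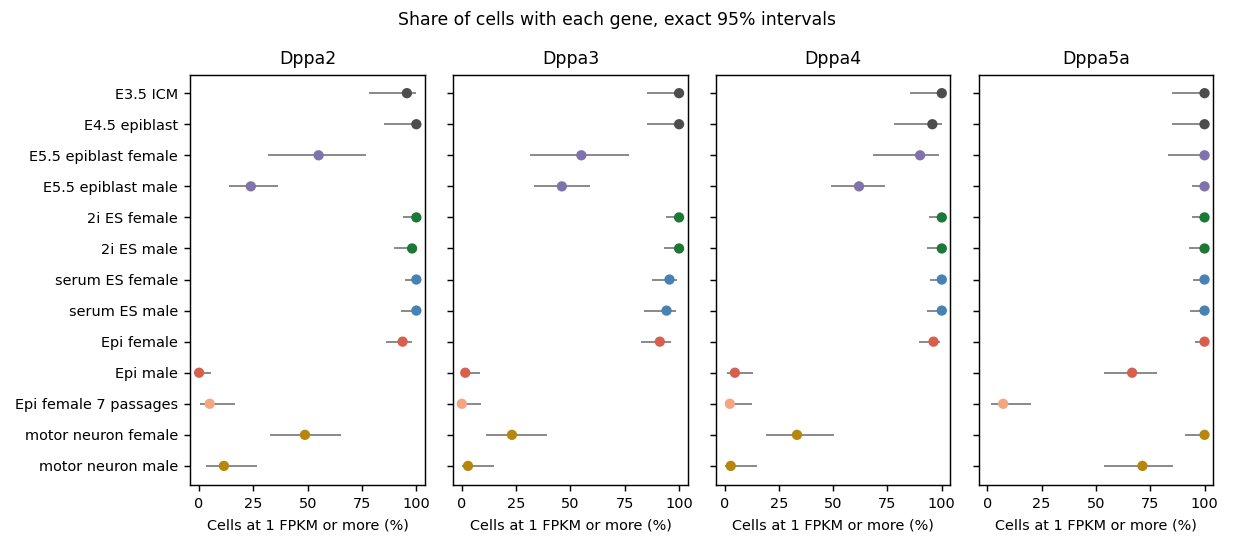
Share of cells with each gene at 1 FPKM or more, in percent on the horizontal axis, for each group on the vertical axis. Points are shares and lines their exact 95% intervals, which cover counting error only. The share of cells with Dppa2 was 0% in the male Epi culture and 93.7% in the first female one, and Dppa5a was in every cell of 10 of the 13 groups.

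The states of the cultures were compared over the 8 cultures of the first table by limma on log2(mean FPKM + 1), with 2 cultures a state, 1 per line. Nothing in the labels says that more than 1 culture stood behind a line and state, so p-values measure only the spread between these cultures. Calls needed a log2 change of at least 1 and an adjusted p (Benjamini-Hochberg, over 15504 genes) under 0.05. The first comparison asked how ES cells in serum differ from those in 2i. Over all genes 0.0193% were called (3 of 15504, and 1549 at an unadjusted p under 0.05). With the line as a replicate block, pairing the cultures of a line, 0 were called (1727 at an unadjusted p under 0.05), and upper-quartile scaling gave 12.

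None of the 4 genes passed in serum against 2i. The log2 change was 1.45 for Dppa2 (SE 1.43, limma adjusted p = 0.885) and 1.496 for Dppa4 (SE 1.71, limma adjusted p = 0.915). Dppa3 gave 0.28 (SE 1.88) and Dppa5a -0.61 (SE 3.18), each with a limma adjusted p of 1. The direction was shared by both lines, at 1.56 (female) and 1.34 (male) for Dppa2, 1.58 and 1.41 for Dppa4, 0.42 and 0.15 for Dppa3, and -0.57 and -0.65 for Dppa5a. The 2 serum and 2 2i cultures did not overlap for any of the 4 genes, which was also so, in either direction, for 53.3% of all genes tested.

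The standard errors came from all 8 cultures, including the Epi cultures, whose female and male means lay far apart. In a fit of only the 4 ES cultures the SE was 0.15 for Dppa2 and 0.12 for Dppa4, with a limma adjusted p of 0.0708 and 0.0598. The male serum cells fell into 2 runs of title numbers, whose meaning the labels do not give. Dppa2 averaged 51.5 FPKM in the lower run (13 cells) and 24.95 in the higher run (39 cells), Dppa4 110.1 and 52.9, and Dppa3 191 and 54.01. Both runs lay above the male 2i mean for Dppa2 and Dppa4, and only the lower run did for Dppa3, whose change turned to -0.09 with the higher runs alone.

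The second comparison asked how Epi cells differ from ES cells in serum. Called were 0.0387% of genes (6 of 15504, 1000 at an unadjusted p under 0.05), and 2 with the line as a replicate block. None of the 4 Dppa genes was among them. The log2 changes were -2.71 for Dppa2 (SE 1.43), -3.32 for Dppa3 (SE 1.88), -2.74 for Dppa4 (SE 1.71) and -4.59 for Dppa5a (SE 3.18), with limma adjusted p of 0.727, 0.727, 0.729 and 0.740. The lines went apart. In the female line the changes were -0.42, -0.19, -0.19 and 0.42, and in the male line -4.99, -6.45, -5.30 and -9.60, for Dppa2, Dppa3, Dppa4 and Dppa5a in that order. The Epi and serum cultures did not overlap for Dppa2 and Dppa4, as for 41.3% of all genes in either direction.

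With the 7-passage female culture in place of the first, all 4 genes passed. Dppa2 changed by -4.82 (SE 0.67, limma adjusted p = 0.0170), Dppa3 by -6.59 (SE 0.48, limma adjusted p = 0.00312), Dppa4 by -5.62 (SE 0.97, limma adjusted p = 0.0284) and Dppa5a by -10.40 (SE 1.65, limma adjusted p = 0.0238). That fit called 848 of 15447 genes in all, 454 higher and 394 lower, and its tables were normalised separately. Between the 2 Epi cultures of the first table, 1 sample each, all 4 genes were lower in the male by a log2 difference of at least 1, at 4.54, 6.53, 5.06 and 9.87, as were 15.7% of all genes. All 4 were likewise lower in the 7-passage than in the first female culture, as were 12.9% of genes.

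**Figure D3:**
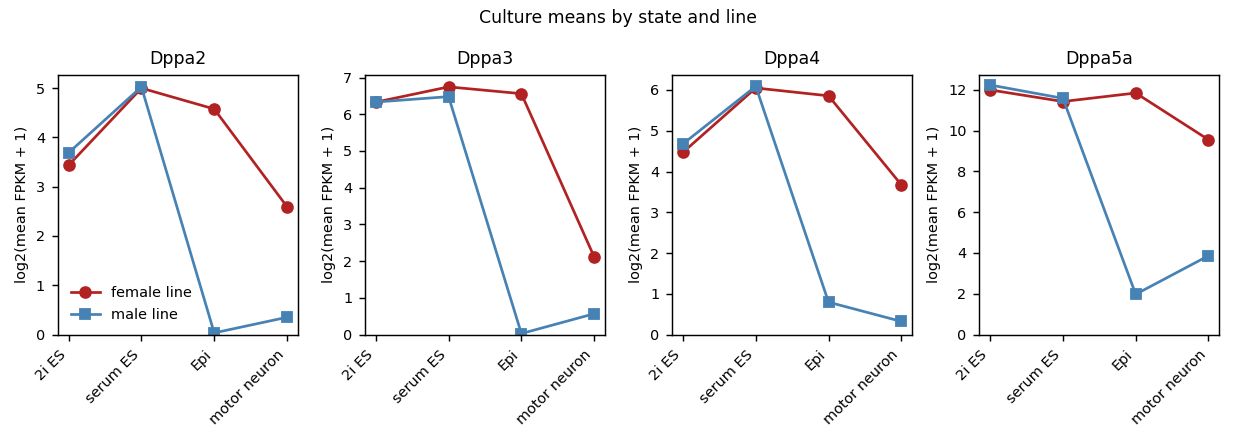
Mean level of each gene in the 8 cultures of the first table, as log2(mean FPKM + 1) on the vertical axis, by state on the horizontal axis. Red circles are the female and blue squares the male line, 1 culture each, and lines join cultures of a line. Both lines lie close together in 2i and serum and apart in Epi and motor neuron cultures, where the male line is lower for all 4 genes.

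The third comparison asked how cells labelled motor neuron differ from ES cells in serum. Of all genes 32.8% were called, 4669 higher and 419 lower. The median gene changed by 0.71 in this contrast and by 0 after upper-quartile scaling, which gave 2182 higher and 1617 lower. With cells rescaled to an equal sum the split was 2166 and 971. Genes called lower made up 2.7% of those tested, and the 4 Dppa genes were not among them. Their log2 changes were -3.54 (Dppa2, SE 1.43, limma adjusted p = 0.0987), -5.27 (Dppa3, SE 1.88, limma adjusted p = 0.0710), -4.07 (Dppa4, SE 1.71, limma adjusted p = 0.108) and -4.79 (Dppa5a, SE 3.18, limma adjusted p = 0.272). Relative to the median gene the changes were -4.25, -5.98, -4.78 and -5.50.

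Both motor neuron cultures lay below both serum cultures for all 4 genes. Of all genes, 70.8% had cultures that did not overlap in either direction, and the share lying below was not counted. In the female line the changes were -2.40 (Dppa2), -4.63 (Dppa3), -2.38 (Dppa4) and -1.87 (Dppa5a), and in the male line -4.67, -5.91, -5.77 and -7.72. Dppa2, Dppa3 and Dppa4 passed when either Epi culture of the first table was left out, with limma adjusted p of 0.0247 and 0.0244 for Dppa2, 0.00601 and 0.00589 for Dppa3, and 0.0438 and 0.0436 for Dppa4. Dppa5a did not (0.102 in both). Those fits called 699 (without the female) and 698 (without the male Epi culture) of 15504 genes lower, against 419 in the main fit. The male motor neuron culture was below the female one by a log2 difference of at least 1 for all 4 genes, as were 13.6% of all genes. A culture mean does not tell apart fewer cells with a gene and less RNA per cell. By the shares of cells, fewer motor neuron than serum cells had Dppa2, Dppa3 and Dppa4 in both lines, while Dppa5a was in all 39 female motor neuron cells at a lower level. Markers of another lineage moved with this contrast: all 4 endoderm genes tested (Dab2, Gata4, Gata6 and Sox17) were called higher, and the summed level of the 5 listed had a median of 32.8 FPKM in female (0 to 1178) and 779.5 in male cells (4.81 to 3849), against 0.0771 and 0.697 in serum. Their part in the result was not tested.

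The female line was compared with the male line over the 4 states. No gene was called (0.0% of 15504, with 1389 at an unadjusted p under 0.05). The log2 difference, female minus male, was 1.63 for Dppa2 (SE 0.85, limma adjusted p = 0.546), 2.09 for Dppa3 (SE 1.14, limma adjusted p = 0.554), 2.04 for Dppa4 (SE 0.97, limma adjusted p = 0.533) and 3.79 for Dppa5a (SE 1.82, limma adjusted p = 0.533). The 4 genes were higher in the female line in the Epi and motor neuron states. In 2i the female means of Dppa2, Dppa4 and Dppa5a were below the male ones and that of Dppa3 was near equal.

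Within single cells the 4 genes were found together in the ES cultures. All 4 were at 1 FPKM or more in 60 of 60 female and 50 of 51 male cells in 2i, 65 of 68 and 49 of 52 in serum, 70 of 79 in the first female Epi culture, and 22 of 23 at both blastocyst stages. The E3.5 cell without Dppa2 also had the lowest Dppa3 (37.2 FPKM) and Dppa5a (348.8) of its group, with Zfp42 at 1726.8. No cell of the male Epi, 7-passage Epi or male motor neuron culture had all 4. The male Epi cells had 1 gene (46 cells) or none (17 cells), and no cell had 2. Among the 46 the gene was Dppa5a in 42, Dppa4 in 3 and Dppa3 in 1. The 7-passage cells had none in 35 of 41 cells.

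**Figure D4:**
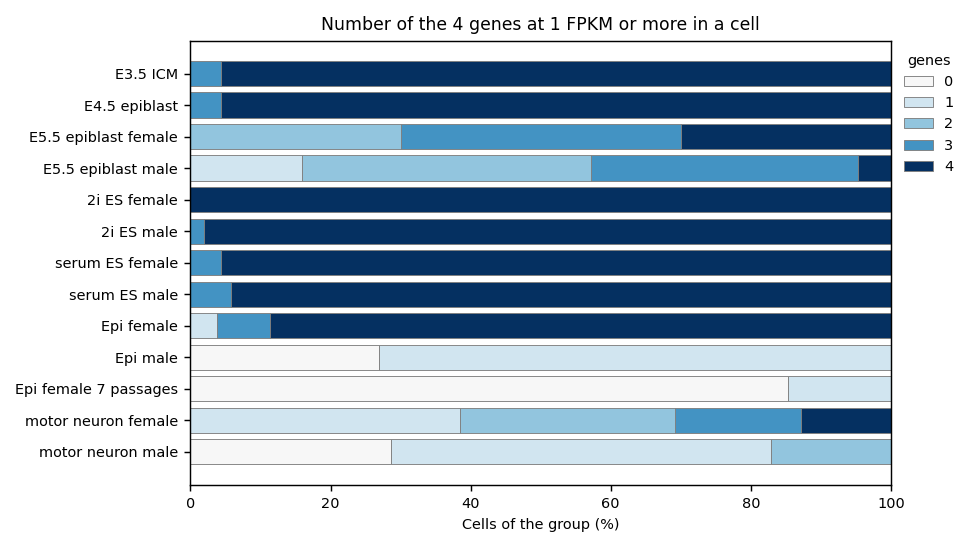
Number of the 4 genes at 1 FPKM or more per cell, as the percentage of the group's cells on the horizontal axis, for each group on the vertical axis. Shades run from 0 genes (lightest) to 4 genes (darkest). All 4 genes were in 100% of female cells in 2i, in 88.6% of the first female Epi culture, and in no cell of the male Epi culture.

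In the first female Epi culture 3 of 79 cells had only Dppa5a, at 22.2 to 211 FPKM. These 3 cells had Fgf5 at 25.7 to 148.9 FPKM and Otx2, another primed marker, at 45.6 to 117.7, where the other 76 cells had medians of 1.09 and 11.2. Zfp42 in them was 0 to 4.57 against a median of 30.5. The 3 cells were picked by their Dppa levels, and this is a description without a test.

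Over the cells of the first female Epi culture, Dppa5a ran against the summed primed markers (Spearman rho -0.57 over 79 cells), and Dppa3 did so less closely (rho -0.42). Dppa5a varied with Zfp42 among cells of that culture (rho 0.60), of the female serum culture (0.69 over 68 cells) and of the male serum culture (0.48 over 52 cells), but little in 2i (0.17 over 60 and 0.20 over 51 cells). Cells share a library preparation, and all such coefficients describe cells of 1 culture. In male serum cells the 4 genes ran against the number of genes per cell (rho -0.28 for Dppa2, -0.58 for Dppa3, -0.50 for Dppa4 and -0.36 for Dppa5a), and the part of this in the correlations between them was not tested.

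Dppa2 and Dppa4 varied together over cells to a degree that differed between groups, from a Spearman rho of 0.15 in female 2i cells to 0.80 in E3.5 ICM among the groups in which both were found in 10 or more cells. The coefficient was 0.74 at E4.5, 0.58 and 0.51 in female and male E5.5 cells, 0.41 and 0.62 in serum, 0.46 in male 2i and 0.60 in female motor neuron cells. Dppa2 and Dppa3, whose genes lie on different chromosomes, gave 0.54 at E3.5, 0.63 at E4.5, 0.33 and 0.28 in serum, and -0.41 in male 2i. Dppa3 and Dppa5a gave 0.65 in female and 0.45 in male serum cells and 0.07 and -0.02 in 2i. All 6 pairs of the 4 genes had positive coefficients in both serum cultures (0.28 to 0.65), while in 2i Dppa3 and Dppa4 gave -0.25 (female) and -0.30 (male). In male serum cells all 4 genes had a higher mean in the lower run of title numbers (Dppa5a 3580 against 2891 FPKM). The part of this in the male serum coefficients was not tested.

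The embryo stages were compared next. The log2 difference of E4.5 from E3.5 was -1.42 for Dppa2, -1.36 for Dppa4, -0.93 for Dppa3 and 0.51 for Dppa5a. Genes lower by at least 1 made up 13.4% of all genes. Each stage was 1 sample, and no test was made. Cells carry a leading title number that the labels do not explain, with 4 such numbers among E3.5 cells and 7 among E4.5 cells. Titles of E3.5 cells also hold further numbers that titles of E4.5 cells lack. Stage and this form of title cannot be told apart. By number, the E3.5 means spanned 52.5 to 61.4 FPKM for Dppa2 and 424 to 614 for Dppa3, and the E4.5 means 9.33 to 42.6 and 94.1 to 716. For Dppa4 the spans were 38.01 to 43.96 and 7.64 to 29.8, and for Dppa5a 1207 to 1491 and 1356 to 2348. The spans of Dppa3 and Dppa5a overlapped between stages and those of Dppa2 and Dppa4 did not. The share of all genes without overlap was not counted. A number held 4 to 7 cells at E3.5 and 2 to 7 cells at E4.5.

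Markers of another lineage moved with the Dppa genes in the blastocyst cells, to a degree that differed between stages. At E3.5 the summed trophectoderm markers ran against Dppa2 (rho -0.63), Dppa3 (-0.54), Dppa4 (-0.39) and Dppa5a (-0.61) over 23 cells, and the summed endoderm markers against Dppa5a (-0.63). At E4.5 the summed trophectoderm markers ran against Dppa2 (rho -0.67) and Dppa4 (rho -0.61) over 23 cells, with smaller coefficients for Dppa3 (-0.21) and Dppa5a (-0.15). At that stage the summed pluripotency markers (Pou5f1, Sox2, Nanog, Zfp42, Klf4, Esrrb, Tfcp2l1 and Tbx3) ran with Dppa2 (0.75) and Dppa4 (0.65). All 5 trophectoderm markers had a mean of at least 1 FPKM at both stages, and their summed level ran from 2.24 to 888 FPKM at E3.5 (median 71.4). Their part in the difference between stages was not tested.

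Between E4.5 and E5.5, Dppa2, Dppa3 and Dppa5a were lower at E5.5 in both sexes by at least 1 on the log2 scale, with differences of -2.42, -6.31 and -4.34 (female) and -3.31, -6.11 and -4.33 (male). For Dppa4 the difference was 0.32 in female cells and -0.91 in male cells. The median gene differed by 1.02 (female) and 0.99 (male) between these stages. Relative to it the differences were -3.44, -7.33, -0.70 and -5.36 in female cells and -4.30, -7.10, -1.91 and -5.32 in male cells, for Dppa2, Dppa3, Dppa4 and Dppa5a. With cells rescaled to an equal sum, Dppa4 gave -0.42 (female) and -1.65 (male), so the direction in female cells turned with the scaling. Genes lower by at least 1 made up 11.3% (female) and 12.0% (male) of those compared. These stages came from separate tables and different crosses, so stage, cross and processing cannot be told apart.

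At E5.5, Dppa2 and Dppa4 were higher in cells with trophectoderm markers. In female cells with all 5 such markers at 1 FPKM or more (9 of 20), Dppa4 averaged 33.4 FPKM and Dppa2 5.47. In the other 11 cells the means were 7.91 and 0.955. Male cells gave 27.4 and 4.29 in the 13 cells with all 5 markers, and 2.56 and 0.345 in the other 50. One male cell with all 5 markers had Dppa4 at 148 FPKM, and without it the mean of the other 12 was 17.4 (median of the 13, 12.3). Dppa4 was in all 22 cells with 5 markers, and in 9 of 11 and 26 of 50 of the others.

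The means of Dppa3 and Dppa5a were lower in E5.5 cells with all 5 markers than in the others. Dppa5a averaged 71.8 FPKM in female cells with all 5 markers and 108.7 in those without, and 83.5 and 95.2 in male cells. Its medians were 43.4 and 104.3 in females, and 90.6 and 87.3 in males. Against the summed trophectoderm markers Dppa5a gave a rho of -0.44 (female) and -0.22 (male), and Dppa3 -0.22 and -0.25. Dppa3 averaged 1.14 and 3.73 in females and 2.08 and 3.35 in males, and without the highest cell of each set 0.678 and 3.06, and 0.998 and 2.95. Pou5f1, the pluripotency factor Oct4, averaged 289 and 624 in females and 577 and 793 in males, so cells with all 5 markers had less of it. The split was set after the values had been seen and carries no test. In male cells Dppa4 and Dppa2 ran with the number of genes per cell (rho 0.41 and 0.19). Female cells gave -0.10 and 0.21. The part of this in the split was not tested. Among E5.5 cells Dppa4 also ran with Zfp42 (rho 0.63 over 20 female and 0.45 over 63 male cells) and against Pou5f1 (-0.56 and -0.50), while at E4.5 it ran with Pou5f1 (0.56). In male E5.5 cells Dppa2 and Dppa4 ran with the summed endoderm markers too (0.40 and 0.45). The summed trophectoderm markers gave 0.55 and 0.59 there. In female E5.5 cells the endoderm coefficients were -0.09 and -0.07, and the trophectoderm ones 0.54 and 0.50. The trophectoderm markers Gata3 (55% and 41.3%), Cdx2 (70% and 31.7%) and Elf5 (70% and 52.4%) were detected in a larger share of female than of male cells. Krt8 was near equal (100% and 98.4%), and Eomes went the other way (95% and 100%). The part of these 5 markers in the higher female mean of Dppa4 was not tested.

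**Figure D5:**
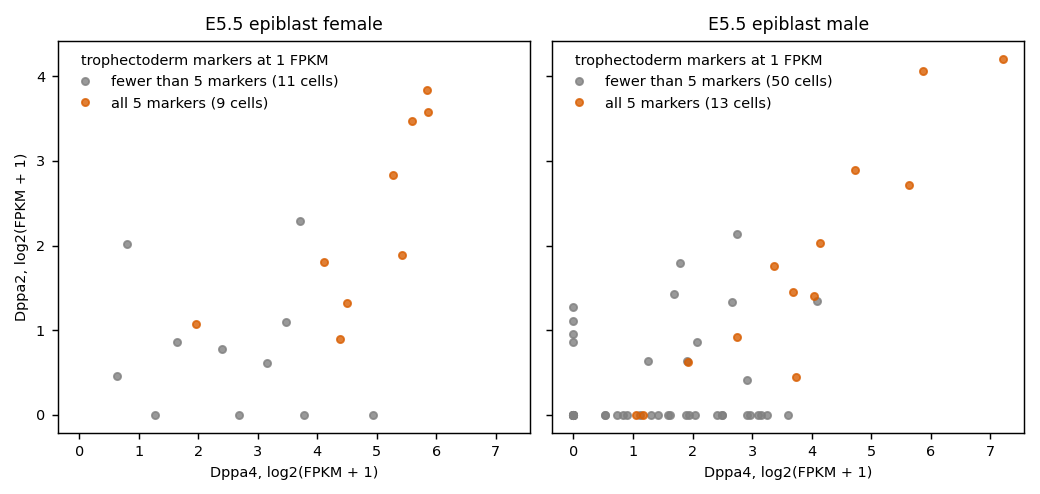
Dppa2 against Dppa4 in single E5.5 cells, both as log2(FPKM + 1), female cells on the left and male cells on the right. Orange points are cells with all 5 trophectoderm markers at 1 FPKM or more (9 female and 13 male), grey points the others (11 and 50). The highest values of both genes belong to orange points, and no grey cell has Dppa4 above 29.7 FPKM.

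Female motor neuron cells with Pou5f1 held more of all 4 Dppa genes. Pou5f1 was at 1 FPKM or more in 17 of 39 female and 2 of 35 male cells. In the 17 female cells Dppa2 averaged 10.3 FPKM (13 cells with it), Dppa3 6.41 (7 cells), Dppa4 24.6 (10 cells) and Dppa5a 1358. In the 22 female cells without Pou5f1 the means were 1.00 (6 cells), 0.968 (2 cells), 1.85 (3 cells) and 279.03. Single cells carried part of these means. Without the highest cell of each set, Dppa3 had 3.24 with and 0.183 without Pou5f1, with a median of 0 in both, and Dppa4 21.4 and 0.619. The neuron marker Tubb3 averaged 437 in cells with and 551 in cells without Pou5f1, while its medians were 78.6 and 18.4. Over the female motor neuron cells Dppa2, Dppa3 and Dppa4 ran with the number of genes per cell (rho 0.29, 0.35 and 0.52). Dppa5a hardly did (0.04). The part of this in the split by Pou5f1 was not tested. Without the Pou5f1 cells, the male means were 0.193, 0.511, 0 and 13.1 FPKM over 33 cells, so Dppa5a in female cells lacking Pou5f1 was still above the highest male cell on average (72.1 FPKM). The summed pluripotency markers had a median of 43.7 in female (3.27 to 695) and 24.01 in male cells (1.23 to 81.96), with Dppa5a running with them in female cells (rho 0.65).

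Genes near the Dppa loci shared parts of the pattern and departed from it in others. Morc1, which encodes a germ line repressor of transposons, averaged 36.9 and 43.2 FPKM in serum (female and male), 37.2 in the first female Epi culture, 0.0509 in the male and 0.130 in the 7-passage Epi culture, but was highest in 2i (70.3 and 85.2), where Dppa2 and Dppa4 were below their serum level. Gdf3, a TGF-beta ligand, had 103.6 in the first female and 0.0243 in the male Epi culture, while Nanog, its pluripotency neighbour, kept 12.9 in the male and 27.9 in the 7-passage Epi culture. Ooep, beside Dppa5a, averaged 132.5 in the first female and 0.1005 in the male Epi culture, and ran with Dppa5a over cells in serum (rho 0.67 and 0.69) and in the first female Epi culture (0.79). Of the 7 neighbours tested (Morc1, Nanog, Gdf3, Apobec1, Slc2a3, Khdc3 and Ooep), none was called in serum against 2i or Epi against serum, and 2 were called lower in motor neuron cultures (2.7% of all genes were), Nanog (-5.04, limma adjusted p = 0.0139) and Khdc3 (-3.21, limma adjusted p = 0.0443). Their median change in that contrast was -4.21, against 0.71 over all genes. Khdc3 lies 5262613 bases from Dppa5a.

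Other genes of the KH family list were higher in blastocyst cells than in culture, apart from Ooep. Khdc3, which encodes an oocyte protein, had 1368 FPKM in E3.5 and 309 in E4.5 cells, and 4.15 to 16.4 in 2i and serum. At E3.5 the summed level of the list had a mean of 1389 FPKM, a median of 608 and a highest cell of 17600. The highest cell thus carried much of the E3.5 mean. Khdc1a had 2.76 and 2.15, and Khdc1c 2.65 and 5.62, at E3.5 and E4.5, and neither was above 0.266 in any culture. Of the 5 family genes measured, 2 passed the low-value filter for testing, and Khdc3 was the one called, lower in motor neuron cultures.

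Genes known as targets of Dppa2 and Dppa4 were read in the same groups. Of the 10 two-cell genes on the list, 9 were measured, and only Tcstv3 reached a mean of 1 FPKM over the 8 cultures. Tcstv3 was highest in the male Epi culture (4.97 FPKM, 8 of 63 cells), where Dppa2 and Dppa4 were near 0. Zscan4d, a marker of the two-cell-like state, averaged 0.0453 and 0.778 FPKM in 2i, 0 and 0.323 in serum and 4.00 in female motor neuron cells. Duxf3, the two-cell activator Dux, was at 0.339 FPKM or less in every group. Syce1, a meiotic gene that becomes methylated in cells without Dppa2 or Dppa4, averaged 3.29 to 15.2 FPKM in the ES and first female Epi cultures, 8.51 and 0.557 in the motor neuron cultures (female and male), and was listed at 0 in both other Epi cultures. Its log2 change in Epi against serum was -1.94 (SE 1.21, limma adjusted p = 0.729). Nkx2-5, the other such gene, was under 1 FPKM in all groups. In embryo cells the order was another one. Syce1 and Nkx2-5 together averaged 0.0654 FPKM at E3.5 and 0.804 at E4.5, where Dppa2 averaged 56.2 and 20.4. At E5.5 they gave 1.87 (female) and 2.43 (male), where Dppa2 averaged 2.99 and 1.16.

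Among the 10 DNA methylation genes, set beside Dppa3 for its role, none was called in serum against 2i or Epi against serum. In motor neuron cultures, where 30.1% of all genes were called higher and 2.7% lower, 1 was called higher (Tet3) and 2 lower, Uhrf1 (-1.02, limma adjusted p = 0.0395) and Dnmt3b (-3.23, limma adjusted p = 0.00606). Their median change was -1.18, against 0.71 over all genes. Of the other lists, 2 of 8 pluripotency genes (Nanog and Pou5f1) were called lower and 1 higher (Tbx3) there, 2 of 5 primed genes lower (Dnmt3b and Otx2), 3 of 7 germ cell genes lower (Prdm1, Prdm14 and Tfap2c), 5 of 5 neuron genes higher and 1 of 4 trophectoderm genes higher (Krt8), beside the same shares of all genes. The split of all calls moved to 2182 higher and 1617 lower with upper-quartile scaling. No listed gene was called in the other contrasts. Dnmt3l, the cofactor of the de novo methyltransferases, averaged 5.89 and 8.58 FPKM in 2i, 196 and 118.5 in serum, 219 in the first female and 0.127 in the male Epi culture. Uhrf1, whose protein Dppa3 binds, averaged 92.8 and 104.6 in 2i and 38.3 and 58.4 in serum, and 135.1 and 131.4 in female and male E5.5 cells, where Dppa3 was 2.57 and 3.08.

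The genes whose group means were most like those of each Dppa gene were ranked by Pearson r of log2(mean FPKM + 1) over the 13 groups, among 11816 genes, as a description of means that share tables and cultures. For Dppa2 the nearest was Dppa3 (r = 0.96), followed by 1700029P11Rik, Gm14058, Rnf125 and Dppa3-ps (0.94 to 0.93). For Dppa3 they were Dppa3-ps (0.97), Rnf125, Dppa2, Timm8a2 and Gpa33 (0.96 to 0.95). Dppa4 was nearest to AU018091 (0.94), Zfp982, Gtsf1l, Rpl10l and Urah (0.93 to 0.91), with Dppa2 at position 8. Dppa5a was nearest to Rpl10l (0.98), Zfp982, Mylpf, Gm13147 and Zfp985 (0.96 to 0.94). Over the 8 cultures of the first table alone, Dppa2 and Dppa4 were each nearest to the other (r = 0.99).

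Dppa1, a further gene of the name that was added after its values had been seen, was nearly limited to the blastocyst cells. It averaged 90.3 FPKM at E3.5 (17 of 23 cells) and 142.96 at E4.5 (16 of 23 cells). In culture it was in 18 of 51 male cells in 2i (mean 3.76) and in 3 of 60 female cells in 2i (mean 0.158). It was listed at 0 in both serum cultures, the male and 7-passage Epi cultures, both motor neuron cultures and E5.5 cells, and under 1 FPKM in all cells of the first female Epi culture.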

How the data were processed

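RNA of 617 single cells was sequenced with SMART-seq2 and Tn5 tagmentation, per the labels' protocols. The authors deposited FPKM values per gene and cell in 4 tables. They were made with STAR 2.4.1, Cufflinks and Cuffnorm 2.2.1 on mm10, per the submitters' processing notes. The annotation, strandedness, cell filters and the fragments that FPKM is scaled to are not given in the sources used here. FPKM holds no counts, so depth is unknown. Tables were normalised separately. A low line stood for the minus sign of the exponent in 356 deposited values, which were read as small numbers. Symbols for 42462 of 43628 gene IDs came from the supplied name table, and coordinates from GENCODE vM21, whose GRCm38 is the same build as mm10. No pair of cells within a table had a Pearson r above 0.938. No sequence of the 4 genes is printed.

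A culture was summarised as its mean FPKM over cells. The 8 cultures of the first table entered limma 3.58.1 (R 4.3.3, trend = TRUE) on log2(mean FPKM + 1), a scale that understates changes of low genes, over genes averaging at least 1 FPKM, with a term for each state (4 residual degrees of freedom), or with state as block plus line for the line contrast. The lines are the same cell line in each state, per the labels, so cultures pair by line. The female minus male deviations of the states correlated with r of 0.06 to 0.16. Embryo stages and single pairs of cultures had 1 sample per arm and no test. Python 3.11.15, SciPy 1.17.1 and Matplotlib 3.10.9 served for the rest.

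The genes, lists and tests were chosen with earlier results of these data known. Named genes were the 4 Dppa genes, genomic neighbours, KH-family, two-cell and DNA methylation lists, lineage markers, and the 5 nearest genes by pattern. Dppa1, Dppa3-ps and the splits of cells by markers were added after values were seen. Alternatives were another pseudocount (0.1), no filter or one at 5 FPKM, mean log values over cells, rescaling, upper-quartile scaling, omitting cells with under 50% of their group's median genes, the replicate block, fewer cultures, the 7-passage culture, each run of title numbers, and other detection thresholds.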

Additional observations from a re-analysis of the deposited data

Results flagged for a closer look

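The change of Dppa5a from serum to Epi went in opposite directions in the 2 lines. It was 0.42 on the log2 scale in the female line (2746 to 3671 FPKM) and -9.60 in the male line (3063 to 2.94 FPKM). With 1 culture per line and state the difference between the lines could not be tested. In these cultures the female one also held the naive marker Zfp42 at 72.5 FPKM and the male one at 0.0687, and the part of this in the difference was not tested.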

How the results depend on the processing

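Of the alternative values of the 16 log2 changes, 296 kept their direction and side of the threshold, 17 passed it where the reported value did not, and 3 reversed. Dppa3 in serum against 2i reversed to -0.50 with mean log values over cells and to -0.089 with the higher runs alone. Leaving out 1 culture gave -9.53 to 0.34 for Dppa5a and -6.58 to -0.053 for Dppa3 in Epi against serum, and -4.66 to -2.42 (Dppa2), -6.04 to -4.50 (Dppa3) and -5.75 to -2.40 (Dppa4) in motor neuron against serum. The 0.34 came without the male Epi culture, and Dppa3 passed without the female one (limma adjusted p = 0.0233), in a fit whose Epi arm was 1 culture, assumed to vary like the other states. With the 7-passage culture, Epi against serum gave -4.82 (Dppa2), -6.59 (Dppa3), -5.62 (Dppa4) and -10.40 (Dppa5a), and motor neuron against serum -3.54, -5.27 and -4.07 for the first 3, all past the threshold. Mean log values gave -5.09 (Dppa3) and -5.01 (Dppa4) there, and a fit of only the cultures compared -5.27 (Dppa3), also past it. The cause of these changes was not tested. The replicate block changed no call of a Dppa gene, with Dppa3 at an adjusted p of 0.0504 in motor neuron against serum.

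Genes called ranged over the alternatives from 0 to 224 in serum against 2i, 0 to 848 in Epi against serum and 1647 to 5688 in motor neuron against serum, and were 0 between lines. Of the mean levels 8 moved beyond the SD or interval, 6 of them under rescaling. Of the shares, 22 moved with a threshold of 0.1 or 5 FPKM. Depth is unknown, so a 0 in a cell may be a gene that was not captured.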
